A study of Mus musculus with 6 samples.

Results

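Alveolar fibroblasts are the fibroblasts of the gas-exchange wall of the lung, and 3513 of them were found among 76800 retained cell barcodes in single-cell RNA sequencing of 6 mouse lungs. They were selected on measured values, by a rule on detected genes. A barcode needed at least 500 UMIs (unique molecular identifiers, each counting 1 captured RNA molecule), at least 300 genes and under 20% mitochondrial UMIs. It needed at least 3 of Npnt, Limch1, Spon1, Cdo1, Lrat, Col13a1, Prkg2 and Cxcl14, and more of these than of the adventitial fibroblast genes Scara5, Clec3b, Entpd2, Adh7, Adgrd1, Gdf10 and Dcn. At least 1 UMI of Col1a1, Col1a2 or Pdgfra was required, and any UMI of Cdh5, Cd3e, Cd79a or Marco excluded the barcode. The 22 genes of this rule are described without a test.

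All mice were male C57BL/6J, 12 weeks old, and the lungs were taken on day 3. Mice of the SLC+LPS group (n = 2) received lipopolysaccharide (LPS, the endotoxin of gram-negative bacteria) at 1 mg/kg together with 7 activations of the SLC, which the series title gives as the subcoeruleus nucleus, a brainstem region with noradrenergic neurons; the labels write SLC-Gq. Mice of the LPS group (n = 2) received LPS at 1 mg/kg, and control mice (n = 2) received PBS. Each library is labelled as a biological replicate. The sources used here do not give the promoter or cell type of the activating construct, nor the timing of the activations relative to LPS. Mice with SLC activation and no LPS were not analysed here. The comparisons ask how the fibroblasts differed after LPS, after LPS with SLC activation, and between these 2 conditions. Lungs were digested with enzymes and dead cells removed, so cell shares describe the suspension, not the tissue.

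Alveolar fibroblasts lie next to type 1 and type 2 epithelial cells and capillaries. They deposit the collagen and elastic fibres of the alveolar wall, store retinoids and lipid, and secrete growth factors such as Fgf7 and Fgf10 that maintain the epithelium. In injured lung they are known to turn on acute-phase proteins, chemokines and interferon-stimulated genes, and some later turn on fibrotic matrix genes. Adventitial fibroblasts form the cuffs of vessels and airways and are marked by Pi16, Dpp4 and Ly6 proteins. A mirrored rule found 1732 of these, which serve as the nearest comparison.

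The 6 libraries held 31589233 to 48641470 UMIs and 165547 to 253281 barcodes, of which 11608 to 13710 per library were retained. The second LPS library stood apart. The fibroblast profile of that library correlated with those of the controls at r = 0.909 and 0.917, against 0.858 with the first LPS library, whereas the first LPS library correlated with the SLC+LPS libraries at 0.936 and 0.931 (Pearson's r across genes on log2 levels, and genes are not independent replicates). The 2 control libraries correlated at 0.975 and the 2 SLC+LPS libraries at 0.911. Results on LPS mice are therefore given with and without that library. Any pair of libraries shared at most 6 barcodes, and none among alveolar fibroblasts.

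RNA from broken cells contributed to every profile. From 12 marker genes of other cell types, measured in barcodes of at most 100 UMIs, free RNA was estimated at 19.1% and 25.5% of alveolar fibroblast UMIs in SLC+LPS libraries, 21.5% and 15.0% in LPS libraries and 43.8% and 50.2% in control libraries. The share expected from free RNA is given below for genes where it matters. Cells with at least 1 UMI of Ptprc, Epcam or Pecam1, which mark leukocytes, epithelium and endothelium, made up 11.7% to 23.6% of the alveolar fibroblasts of a library.

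The alveolar fibroblasts numbered 288 and 145 in SLC+LPS libraries, 182 and 553 in LPS libraries and 953 and 1392 in control libraries. Their median depth was 4652 and 4380 UMIs in SLC+LPS, 5653.5 and 3555 UMIs in LPS and 3087 and 2289 UMIs in control libraries. Median mitochondrial shares were 7.202% and 6.29% in SLC+LPS, 7.25% and 4.92% in LPS and 8.69% and 8.13% in control libraries. In both respects the control libraries lay outside the range of the others: their fibroblasts were shallower and had more mitochondrial RNA. Cells just inside the rule, with exactly 3 of the 8 genes, numbered 62 and 26 in SLC+LPS, 38 and 49 in LPS and 150 and 233 in control libraries. Cells just outside it, with 2, numbered 103 and 61 in SLC+LPS, 76 and 70 in LPS and 207 and 339 in control libraries.

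The genes that chose the cells were not at the same level in every library. UMIs were summed over the alveolar fibroblasts of each library and scaled to 1000000 UMIs (counts per 1000000, written CPM). Npnt, which encodes the matrix protein nephronectin, was at 986 and 791 CPM in the SLC+LPS libraries, 582 and 3254 CPM in the LPS libraries and 2473 and 2519 CPM in the control libraries. Limch1, an actin-binding protein, was at 854 and 978 CPM in the SLC+LPS libraries, 848 and 2517 CPM in the LPS libraries and 2233 and 2317 CPM in the control libraries. In both genes the second LPS library was with the controls and the first with the SLC+LPS libraries. Pdgfra, a growth factor receptor and general marker of lung fibroblasts, was at 929 and 763 CPM in the SLC+LPS libraries, 691 and 1753 CPM in the LPS libraries and 1077 and 1028 CPM in the control libraries. Col1a1 and Col1a2, the chains of type I collagen, ran the other way. Col1a1 was at 8731 and 10339.8 CPM in the SLC+LPS libraries, 10087 and 2878 CPM in the LPS libraries and 4139.9 and 3959.9 CPM in the control libraries. Spon1 (a secreted matrix protein), Lrat (retinoid storage) and Cxcl14 (a chemokine) had control values within the range of the other libraries. So did Npnt, Limch1, Pdgfra and Col1a1, where the second LPS library lay at an end of that range. The 5 markers given with the cell type name, Npnt, Limch1, Spon1, Lrat and Col13a1, were detected in all 6 libraries, but these genes also define the cells.

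**Figure D1:**
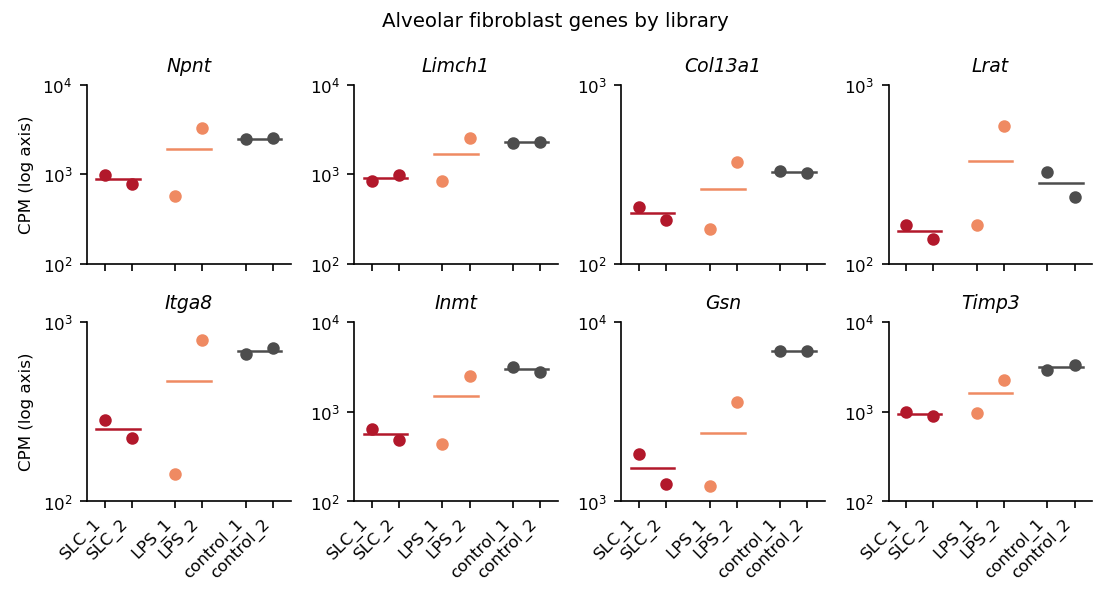
Levels of rule genes and of alveolar fibroblast genes outside the rule in the summed alveolar fibroblasts of each library (CPM, log axis; each point is 1 library, written SLC for the SLC+LPS libraries, LPS and control, with lines at the group means). For Npnt the second LPS library, at 3254 CPM, sits with the controls, and the first sits with the SLC+LPS libraries.

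Markers that the rule did not use bore on the name of the cells. The 8 genes Tcf21, Itga8, Ces1d, Inmt, Wnt2, Fgfr4, Slc7a10 and Scn7a, known from alveolar fibroblasts, were detected in every library. Their summed level was 1362 and 1042 CPM in SLC+LPS, 899.8 and 4734 CPM in LPS and 4868 and 4240.3 CPM in control libraries. Markers of other stromal cells were present too. Adventitial fibroblast markers outside the rule summed to 2076 and 3360.4 CPM in SLC+LPS, 2776 and 1903 CPM in LPS and 2879.7 and 2859 CPM in control libraries, and smooth muscle and myofibroblast markers to 1719 and 701 CPM in SLC+LPS, 1289 and 463 CPM in LPS and 1477 and 1375 CPM in control libraries. Among 6 mesothelial markers, Msln and Lrrn4 were at 0 in all libraries. Upk1b, of the same list, was present in all, at 44.9 and 25.3 CPM in SLC+LPS, 45.4 and 138 CPM in LPS and 109 and 118 CPM in control libraries. The cells thus carried alveolar fibroblast markers in all libraries, at levels that in 3 of the 4 LPS-treated libraries were below those of the controls.

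Set against the adventitial fibroblasts of the same libraries, genes outside the rule separated the populations in the control mice. Cells were assigned by expression, so these ratios are a description. Nebl, an actin-binding protein, averaged 272 CPM in alveolar and 11.2 CPM in adventitial fibroblasts of controls. Its log2 ratio of alveolar to adventitial level, with 1 CPM added to each, was 4.63 and 4.45 in SLC+LPS, 4.64 and 4.46 in LPS and 5.01 and 4.11 in control libraries, a range of 4.11 to 5.01. Itga8, the integrin chain that binds nephronectin, averaged 684 CPM in alveolar and 50.4 CPM in adventitial fibroblasts of controls, and Ces1d, a lipid-hydrolysing enzyme, 235 and 24.97 CPM. Smooth muscle genes were also among the largest ratios. In controls Tagln averaged 195 CPM in alveolar and 12.0 CPM in adventitial fibroblasts, and Myh11 230 and 18.5 CPM. In adventitial cells the smooth muscle and myofibroblast marker sum was 477 and 211 CPM in SLC+LPS and 358 and 401 CPM in LPS libraries. In control libraries it was 493 and 613 CPM. Each was below the alveolar sum of the same library, and the part of such cells was not tested. Low in alveolar fibroblasts were Pi16, at 23.3 CPM against 502 CPM in adventitial fibroblasts of controls, and the chemokine Ccl11, at 9.76 against 212 CPM. The matrix protein Tgfbi changed place. Its log2 ratio was 0.54 and -0.45 in SLC+LPS, 0.90 and -1.70 in LPS and -3.56 and -3.20 in control libraries, and free RNA was expected to account for 89.5% of its level in SLC+LPS libraries. Upk1b, a mesothelial marker, had a ratio of 0.17 and -2.11 in SLC+LPS, 2.21 and 7.12 in LPS and 5.43 and 6.02 in control libraries. Its 5.43 and 6.02 in controls and -2.11 in 1 SLC+LPS library went with a mesothelial marker sum in adventitial fibroblasts of 132 and 309 CPM in SLC+LPS, 45.1 and 0 CPM in LPS and 2.34 and 5.82 CPM in control libraries, and the part of mesothelial cells in this was not tested.

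RNA of blood and epithelial cells was present in all libraries and differed between groups. The 12 macrophage and monocyte markers, all detected in every library, summed to 6926 and 7746 CPM in SLC+LPS, 7953 and 795 CPM in LPS and 3378 and 2797 CPM in control libraries. The 12 neutrophil markers, also all detected, summed to 1912 and 2308 CPM in SLC+LPS, 2707 and 3559 CPM in LPS and 934 and 781 CPM in control libraries, against 9351 to 21113 CPM in the free RNA of the 4 LPS-treated libraries. The 6 airway secretory markers summed to 316 and 149 CPM in SLC+LPS, 406 and 61.7 CPM in LPS and 1599 and 2948 CPM in control libraries. Macrophage markers were thus higher in both SLC+LPS libraries and the first LPS library than in the controls, and lower than in the controls in the second LPS library. Airway markers were higher in the controls. The part of these cells in the differences described below was not tested beyond the share expected from free RNA.

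The share of alveolar fibroblasts in the suspension was lower in LPS-treated mice. They made up 2.14% (95% exact binomial interval 1.91% to 2.40%) and 1.12% (0.947% to 1.32%) of retained barcodes in SLC+LPS libraries, 1.33% (1.14% to 1.53%) and 4.76% (4.38% to 5.17%) in LPS libraries and 7.52% (7.07% to 7.99%) and 11.2% (10.6% to 11.8%) in control libraries. The intervals cover counting error only. No LPS-treated library reached the lower control library. The mean was 1.63% ± 0.724 in SLC+LPS mice, 3.05% ± 2.43 in LPS mice and 9.35% ± 2.59 in control mice (SD, n = 2 each). An exact two-sided permutation test gave p = 0.33 for each treated group against control, the smallest value that 2 against 2 can give, and p = 0.667 for SLC+LPS against LPS. Without the second LPS library the share was higher in SLC+LPS than in LPS mice, by 0.305 percentage points.

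Barcodes with neutrophil RNA made up much of the denominator. Neutrophils enter the lung after LPS, and their RNA was also in the free RNA of every library. Barcodes with at least 3 of 7 neutrophil genes made up 65.8% and 66.6% of retained barcodes in SLC+LPS libraries, 65.1% and 50.7% in LPS libraries and 23.2% and 18.6% in control libraries. Alveolar fibroblasts passed this pattern too, so it does not count neutrophils alone. Il1b, of the 7 genes, was detected in 79.9% and 84.8% of alveolar fibroblasts in SLC+LPS and 88.5% and 31.8% in LPS libraries. In control libraries it was 28.8% and 24.9%. These barcodes were then left out, except any that the rule picked as alveolar fibroblasts, which were kept. Other cells that carry free neutrophil RNA would be left out as well, and their number was not tested. The alveolar fibroblast share was then 6.11% and 3.27% in SLC+LPS libraries, 3.71% and 9.48% in LPS libraries and 9.70% and 13.6% in control libraries. Every LPS-treated library was still below both controls, though the second LPS library was close to the lower one. At 1000 UMIs for every barcode, the share of alveolar fibroblasts was 1.52% and 1.06% in SLC+LPS, 0.934% and 4.21% in LPS and 7.15% and 12.2% in control libraries.

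Within the fibroblasts, the balance of the 2 kinds depended on the depth at which cells were assigned. Alveolar cells made up 71.5% and 66.2% of alveolar plus adventitial fibroblasts in SLC+LPS libraries, 61.7% and 81.2% in LPS libraries and 61.2% and 66.6% in control libraries. The ranges overlapped, and the exact permutation p was 0.667 for each treated group against control. At 1000 UMIs for every barcode, the alveolar share of both kinds was 69.3% and 71.4% in SLC+LPS, 67.9% and 84.2% in LPS and 59.1% and 66.6% in control libraries, so that every LPS-treated library lay above both controls (exact permutation p = 0.33 for each treated group, the smallest possible). With the stricter cell filter it was 68.9% and 64.7% in SLC+LPS, 59.7% and 80.6% in LPS and 54.5% and 61.8% in control libraries, where the SLC+LPS libraries lay above both controls and the LPS libraries overlapped with them. Against control, the difference of the LPS group was 7.54 percentage points, and -2.21 without the second LPS library.

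**Figure D2:**
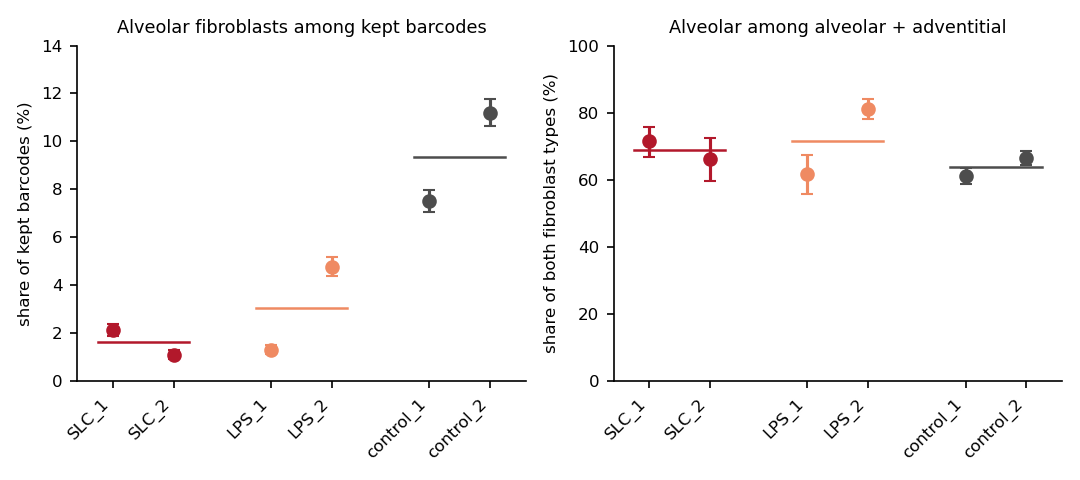
Alveolar fibroblasts as a percentage of retained barcodes (left) and of alveolar plus adventitial fibroblasts (right). Each point is 1 library with its 95% exact binomial interval, and lines mark group means; SLC stands for the SLC+LPS libraries. The SLC+LPS and LPS libraries lie below both control libraries in the left panel, at 1.12% to 4.76% against 7.52% and 11.2%.

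Expression was compared between groups on the UMIs summed per library, with edgeR's quasi-likelihood test over 11088 genes in all 6 libraries and Benjamini-Hochberg adjustment. Genes at an adjusted p under 0.05 are called. The p-values speak for the spread between these mice, with 2 in each group.

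Against control, Mmp8, which encodes a protease, and Tnc, which encodes a provisional-matrix protein, rose in the summed alveolar fibroblasts of SLC+LPS mice. Those 2 genes are 0.018% of the genes tested, and no gene fell (0.0%). Lymphocytes held Mmp8 too, as given below, and the part of other cells in it was not tested. Both SLC+LPS libraries lay above both control libraries in 25 of 29 cell division genes, 19 of 29 genes of inflammatory and fibrotic fibroblasts and 18 of 35 chemokines, cytokines and adhesion molecules, against 20.4% of all genes. They lay below both controls in 14 of 18 alveolar fibroblast genes, against 34.2% of all genes. Beyond Mmp8 and Tnc, genes passed the threshold when the LPS libraries were left out of the fit, as given below.

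Tnc encodes tenascin-C, a matrix glycoprotein that is scarce in healthy adult lung and made during repair. It was at 419 and 305 CPM in the SLC+LPS libraries, 209.7 and 189 CPM in the LPS libraries and 24.9 and 30.6 CPM in the control libraries. All 4 LPS-treated libraries lay above the controls, and both SLC+LPS libraries above both LPS libraries. The difference between SLC+LPS and control mice was called (log2 fold change 3.82, SE 0.32, adjusted p = 0.0147). Over 18 alternatives its adjusted p ran from 8.19e-22 to 0.245; it was under 0.05 in 14 and over it when either SLC+LPS library or either control library was left out. Free RNA was expected to give 5.16% of its level. After thinning each cell to 1000 UMIs, Tnc was detected in 14.7% and 11.5% of cells in SLC+LPS, 9.09% and 7.84% in LPS and 2.24% and 1.38% in control libraries. In lymphocytes (barcodes with Cd3e or Cd79a and no UMI of the 3 fibroblast genes, at a median of 1156 to 2017 UMIs before thinning), which should lack Tnc, the share was 0.881% and 0.978% in SLC+LPS, 0.476% and 0.203% in LPS and 0.166% and 0.368% in control libraries, an order that put fibroblasts above lymphocytes in every library. Thinning left 272 and 139 alveolar fibroblasts in SLC+LPS, 176 and 536 in LPS and 892 and 1303 in control libraries. Without thinning the shares of alveolar fibroblasts were 28.8% and 26.9% in SLC+LPS, 24.7% and 15.2% in LPS and 4.83% and 3.74% in control libraries.

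Mmp8 encodes neutrophil collagenase, which is best known from neutrophil granules. In alveolar fibroblasts it was at 189 and 218 CPM in the SLC+LPS libraries, 161 and 154 CPM in the LPS libraries and 17.7 and 11.5 CPM in the control libraries, with every LPS-treated library above both controls. The SLC+LPS difference from control was called (log2 fold change 3.93, SE 0.33, adjusted p = 0.0147; 1.75e-19 to 0.245 over the alternatives, under 0.05 in 12 of 18 and over it without any 1 of the SLC+LPS or control libraries). It was also over it, at 0.117, without cells that held a UMI of the leukocyte, epithelial or endothelial genes Ptprc, Epcam or Pecam1, where the log2 fold change was 4.99, and at 0.111 without the cells that Scrublet marked as doublets. Free RNA was expected to give 28.1% of the level in SLC+LPS libraries. At 1000 UMIs a cell, 16.2% and 21.6% of cells in SLC+LPS, 9.66% and 5.41% in LPS and 1.35% and 0.537% in control libraries had an Mmp8 UMI, but so did lymphocytes, at 8.81% and 13.7% in SLC+LPS, 9.84% and 3.44% in LPS and 2.48% and 2.33% in control libraries. In the first LPS library the fibroblast share was at the lymphocyte share, and in the control libraries below it, so those values are at background. Lymphocytes held Mmp8 at 167 and 425 CPM in SLC+LPS, 202 and 172 CPM in LPS and 56.9 and 82.9 CPM in control libraries. Only in the first SLC+LPS library was this below the fibroblast level. The part of other cells in Mmp8 was not tested. The neutrophil marker sum, of which Mmp8 is part, was also higher in every LPS-treated library than in the controls.

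With the 2 LPS libraries left out, the same test on the SLC+LPS and control libraries alone called 422 genes higher (3.73% of 11303 genes) and 266 lower (2.35%). This fit was examined after the counts of calls were seen. Of the genes in it that passed the limits for naming, those with the largest differences are described next, with both adjusted p-values.

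Several of the genes with large differences encode secreted proteins of the acute phase and of matrix regulation, a grouping made after their values were seen. Saa3, an acute-phase apolipoprotein induced by endotoxin, was at 3648 and 7020.1 CPM in the SLC+LPS libraries, 8068 and 322 CPM in the LPS libraries and 17.4 and 11.5 CPM in the control libraries. Both SLC+LPS libraries and the first LPS library were high, the second LPS library was far below them, and the controls were near 0. Its log2 fold change against control was 8.68 (SE 1.56), with adjusted p = 0.000586 in the 2 groups and 0.135 in all 6 libraries (4.04e-06 to 0.93 over the alternatives). Saa3 was detected in 63.6% and 89.2% of cells in SLC+LPS, 75.6% and 8.4% in LPS and 0.785% and 0.691% in control libraries at 1000 UMIs a cell, and in lymphocytes in 38.8% and 51.3% in SLC+LPS, 49.5% and 3.34% in LPS and 0.248% and 0.123% in control libraries. The fibroblast share was above the lymphocyte share in every library.

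Lcn2 encodes lipocalin 2, which withholds iron from bacteria. It was at 435 and 712 CPM in the SLC+LPS libraries, 672 and 132 CPM in the LPS libraries and 17.7 and 8.15 CPM in the control libraries, with adjusted p = 0.0026 in the 2 groups and 0.121 in all 6. Lymphocytes held Lcn2 at 382 and 683 CPM in SLC+LPS, 446 and 64.7 CPM in LPS and 40.5 and 42.6 CPM in control libraries. Those values were below the fibroblast level in the LPS-treated libraries and above it in both controls. The part of other cells in Lcn2 was not tested. Ptx3, a soluble pattern recognition protein, was at 94.9 and 61.8 CPM in the SLC+LPS libraries, 85.6 and 8.5 CPM in the LPS libraries and 1.26 and 3.09 CPM in the control libraries. Timp1, an inhibitor of metalloproteinases, was at 196 and 266 CPM in the SLC+LPS libraries, 209 and 20.6 CPM in the LPS libraries and 16.7 and 12.1 CPM in the control libraries. In these 3 genes the second LPS library was the lowest of the 4 LPS-treated libraries, yet above both controls. Timp1 passed in the 2 groups (adjusted p = 0.000586) but not in all 6 (0.205), as did Ptx3 (0.000904 and 0.173).

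Spp1 encodes osteopontin, a secreted phosphoprotein made by macrophages and by fibroblasts in fibrosis. It was at 791 and 798 CPM in the SLC+LPS libraries, 237 and 97.1 CPM in the LPS libraries and 25.9 and 11.5 CPM in the control libraries. The SLC+LPS libraries were above both LPS libraries, and these above both controls. The log2 fold change of SLC+LPS against control was 5.55 (SE 0.61), with adjusted p = 0.0547 in all 6 libraries and 0.000586 in the 2 groups (2.37e-31 to 0.589 over the alternatives). At 1000 UMIs a cell it was detected in 7.72% and 6.47% of cells in SLC+LPS, 7.39% and 2.43% in LPS and 1.12% and 0.921% in control libraries. Lymphocytes had it in 5.29% and 2.94% in SLC+LPS, 3.97% and 1.01% in LPS and 0.745% and 1.6% in control libraries. The higher macrophage marker sum of SLC+LPS libraries stands beside this, and its part was not tested.

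Other genes with large differences were of mixed function. Chl1, a cell adhesion molecule of the L1 family, was at 104 and 122 CPM in the SLC+LPS libraries, 142 and 21 CPM in the LPS libraries and 0 and 0.281 CPM in the control libraries; the controls together held 1 UMI of it, so no fold is given. Cyp1b1, a cytochrome P450 of steroid and retinoid metabolism, was at 63.3 and 88.5 CPM in the SLC+LPS libraries, 88.2 and 5.82 CPM in the LPS libraries and 0.632 and 1.12 CPM in the control libraries. Kif26b, a kinesin-family protein, was at 57.6 and 64.6 CPM in the SLC+LPS libraries, 55.9 and 4.47 CPM in the LPS libraries and 1.58 and 0.843 CPM in the control libraries. In all 3 the second LPS library was the lowest of the LPS-treated libraries. Cxcl13, a chemokine for B cells, was at 51.2 and 215 CPM in the SLC+LPS libraries, 339 and 33.6 CPM in the LPS libraries and 6 and 7.02 CPM in the control libraries, and passed in the 2 groups at adjusted p = 0.0474.

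The genes with the largest lower values in SLC+LPS mice were not all more abundant in alveolar than in adventitial fibroblasts. In adventitial fibroblasts of controls, Inmt was at 1288 and 1060 CPM, Gsn at 12482 and 12519 CPM, Ltbp4 at 1061 and 999.6 CPM and Fbln5 at 335 and 315 CPM, so that only Inmt of these 4 was higher in alveolar cells. In alveolar fibroblasts Inmt, an amine methyltransferase, was at 641 and 482 CPM in the SLC+LPS libraries, 436 and 2508 CPM in the LPS libraries and 3161 and 2723 CPM in the control libraries. Gsn, the actin-severing protein gelsolin, was at 1831 and 1243 CPM in the SLC+LPS libraries, 1222 and 3579 CPM in the LPS libraries and 6826 and 6856 CPM in the control libraries. Ppl, the cytoskeletal linker periplakin, was at 29.7 and 23.9 CPM in the SLC+LPS libraries, 27.1 and 159 CPM in the LPS libraries and 254 and 254 CPM in the control libraries. For each, both SLC+LPS libraries and the first LPS library were below both controls, and the second LPS library lay between. The log2 fold changes against control were -2.27 (SE 0.69) for Inmt, -2.04 (SE 0.51) for Gsn and -3.11 (SE 0.69) for Ppl. They passed in the 2 groups (adjusted p = 0.00287, 0.00515 and 0.000586) and not in all 6 (0.327, 0.237 and 0.192).

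Ltbp4, which binds latent TGF-beta and assembles elastic fibres, was at 188 and 153 CPM in the SLC+LPS libraries, 163 and 194 CPM in the LPS libraries and 778 and 675 CPM in the control libraries. Here the second LPS library was with the other LPS-treated libraries, all far below the controls. Its log2 fold change was -1.97 (SE 0.28) for SLC+LPS against control (adjusted p = 0.00381 in the 2 groups, 0.118 in all 6). Fbln5, another elastic fibre assembly protein, was at 74 and 39.3 CPM in the SLC+LPS libraries, 36.7 and 171 CPM in the LPS libraries and 213 and 238 CPM in the control libraries. Pcolce2, an enhancer of collagen processing, was at 202 and 117 CPM in the SLC+LPS libraries, 145 and 769.5 CPM in the LPS libraries and 891 and 829 CPM in the control libraries, and the BMP antagonist Chrdl1 at 25.3 and 12.6 CPM in the SLC+LPS libraries, 17.5 and 47.4 CPM in the LPS libraries and 94.7 and 114 CPM in the control libraries. Ptgfr (the receptor of prostaglandin F), Synm (an intermediate filament protein) and Galnt15 (an enzyme of mucin-type glycosylation) were also lower in both SLC+LPS libraries than in both controls, with log2 fold changes of -2.24 (SE 0.99), -1.96 (SE 0.70) and -1.78 (SE 0.39).

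**Figure D3:**
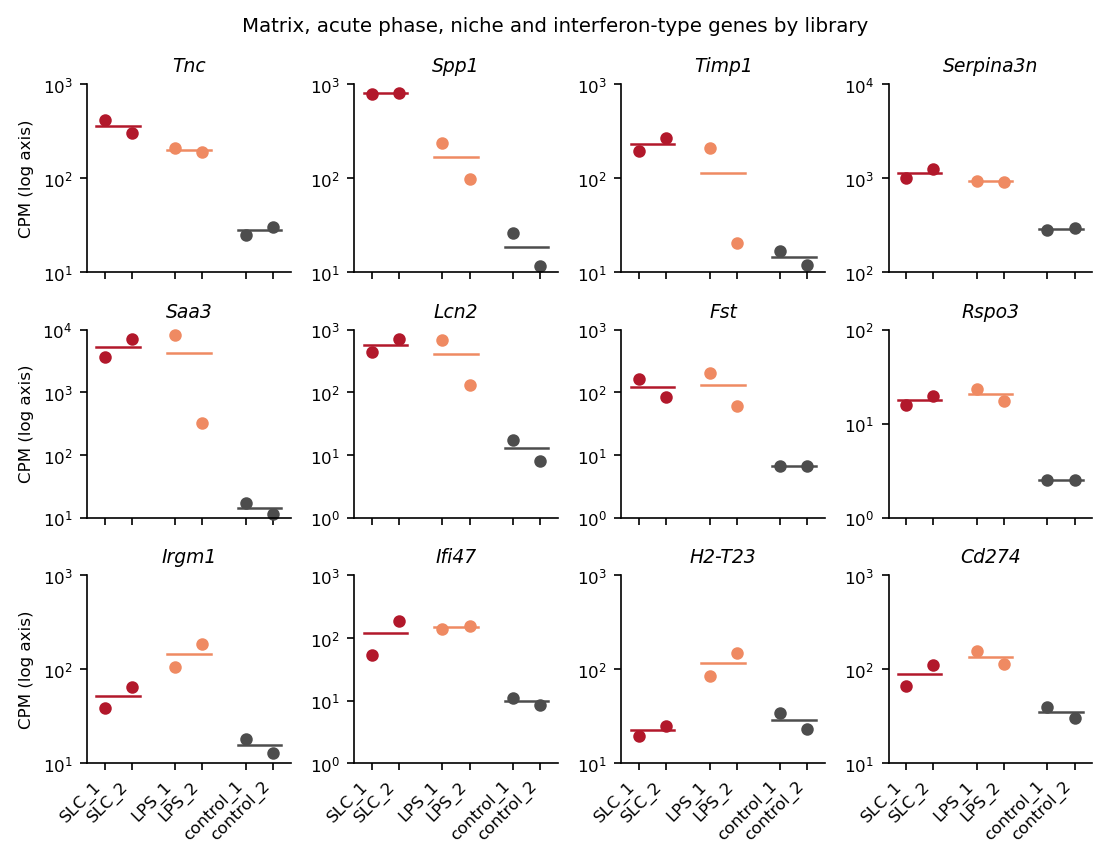
Levels of matrix, acute-phase, niche and interferon-type genes in the summed alveolar fibroblasts of each library (CPM, log axis; each point is 1 library, written SLC for the SLC+LPS libraries, LPS and control, with lines at the group means). Tnc, at 189 to 419 CPM in the 4 LPS-treated libraries against 24.9 and 30.6 CPM in control libraries, separates the groups, and for Saa3 the 2 LPS libraries lie at 8068 and 322 CPM.

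The genes were also read in 18 lists by function, each by the count of members whose SLC+LPS libraries lay all above or all below the control libraries. Over all genes these shares were 20.4% higher and 34.2% lower, and the median log2 fold change was -0.0038. Tnc was the 1 member called in all 6 libraries. Counts from the 2 groups alone are given as passed. The lists were chosen with earlier results known, and no test of a list was made.

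Among 18 alveolar fibroblast genes outside the rule, 14 (77.8%) were lower without overlap and 1 higher, with a median log2 fold change of -1.003; 8 passed lower and 1 higher. The member higher was Gyg, glycogenin, the primer of glycogen, at 936 and 1221 CPM in the SLC+LPS libraries, 919.9 and 970.4 CPM in the LPS libraries and 439.5 and 509 CPM in the control libraries. Fgf10, a growth factor that keeps epithelial progenitors, was at 62.6 and 81.5 CPM in the SLC+LPS libraries, 58.5 and 115 CPM in the LPS libraries and 188 and 152 CPM in the control libraries. In Gyg all 4 LPS-treated libraries were above the controls, and in Fgf10 all 4 were below.

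Of 24 lipid and retinoid genes, 6 were higher and 8 lower without overlap, and 4 passed higher and 3 lower. Rbp4, the retinol carrier, was at 117 and 77.3 CPM in the SLC+LPS libraries, 77.8 and 75.6 CPM in the LPS libraries and 261 and 294 CPM in the control libraries. Aldh1a2, which makes retinoic acid, was at 29.7 and 56.2 CPM in the SLC+LPS libraries, 7.86 and 4.47 CPM in the LPS libraries and 4.42 and 7.02 CPM in the control libraries, with both SLC+LPS libraries above all others, and passed in the 2 groups (log2 fold change 2.98 (SE 0.52), adjusted p = 0.0126, 0.135 in all 6 libraries). Hilpda, a lipid droplet protein induced by hypoxia, was at 111 and 169 CPM in SLC+LPS libraries, against 57.5 and 58.7 CPM in control libraries, with 53.8% expected from free RNA. The fatty acid transporter Cd36, at 25.3 and 26.7 CPM in SLC+LPS libraries, against 105 and 67.7 CPM in control libraries, was at a level that free RNA alone could give.

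Of 29 niche factors for the alveolar epithelium and capillaries, 7 (24.1%) were higher and 13 (44.8%) lower without overlap, against 20.4% and 34.2% of all genes. In the 2 groups 5 passed higher and 3 lower. Fst, follistatin, which binds and neutralises activins, was at 162 and 85.7 CPM in the SLC+LPS libraries, 204 and 60.4 CPM in the LPS libraries and 6.63 and 6.74 CPM in the control libraries. Every LPS-treated library was at least 60.4 CPM and both controls were below 7 CPM, with adjusted p = 0.000904 in the 2 groups and 0.118 in all 6. Rspo3, an amplifier of Wnt signalling, was at 15.8 and 19.7 CPM in the SLC+LPS libraries, 23.6 and 17.4 CPM in the LPS libraries and 2.53 and 2.53 CPM in the control libraries. Csf1, the growth factor of macrophages, was at 151 and 122 CPM in the SLC+LPS libraries, 165 and 219.7 CPM in the LPS libraries and 60 and 83.4 CPM in the control libraries. Fgf7, a growth factor for type 2 cells, was at 75.3 and 75.9 CPM in the SLC+LPS libraries, 98.7 and 183 CPM in the LPS libraries and 214 and 187 CPM in the control libraries. Rspo3 and Csf1 were higher in all 4 LPS-treated libraries, and Fgf7 was lower in all 4.

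Of 46 matrix genes, 22 (47.8%) were higher and 14 (30.4%) lower without overlap, against 20.4% and 34.2% of all genes. The median log2 fold change was 0.43. In the 2 groups 12 passed higher: Col3a1, Col5a1, Col5a2, Col5a3, Eln, Fbn1, Fbln2, Fn1, Sparc, Tnc, Vcan and Lox. Another 6 passed lower: Fbln5, Ogn, Prelp, Lama2, Tnxb and Pcolce2. The higher members hold chains of fibrillar collagens, elastic fibre proteins, provisional matrix and the collagen cross-linking enzyme Lox. Fn1, fibronectin, was at 2739 and 2537 CPM in the SLC+LPS libraries, 1891 and 1721 CPM in the LPS libraries and 1035 and 1100.3 CPM in the control libraries, graded from SLC+LPS over LPS to control. Its log2 fold change was 1.43 (SE 0.31), with adjusted p = 0.00919 in the 2 groups and 0.186 in all 6.

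Genes of inflammatory and fibrotic fibroblasts were higher: 19 of 29 without overlap and 2 lower, with a median log2 fold change of 1.197; 18 passed higher, and Ccn2, a matricellular target of TGF-beta and YAP, passed lower. Serpina3n, an acute-phase protease inhibitor, was at 1003 and 1264 CPM in the SLC+LPS libraries, 933 and 909.5 CPM in the LPS libraries and 279 and 297 CPM in the control libraries. All 4 LPS-treated libraries were above both controls, with a log2 fold change of 2.11 (SE 0.32) and adjusted p = 0.00506 in the 2 groups, 0.118 in all 6. Cthrc1, a marker of collagen-rich fibroblasts in lung fibrosis, was at 19 and 9.83 CPM in the SLC+LPS libraries, 6.99 and 10.3 CPM in the LPS libraries and 1.26 and 0.562 CPM in the control libraries, low in all libraries.

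Cell division genes were higher in most members. Of 29, 25 (86.2%) were higher without overlap, 1 was lower, the median log2 fold change was 2.16 and 18 passed higher. Top2a, the topoisomerase of dividing cells, was at 109 and 61.8 CPM in the SLC+LPS libraries, 123 and 21 CPM in the LPS libraries and 11.1 and 11.5 CPM in the control libraries. Tyms, thymidylate synthase, was at 43.6 and 43.6 CPM in the SLC+LPS libraries, 30.6 and 13.4 CPM in the LPS libraries and 8.53 and 7.87 CPM in the control libraries, and the mitotic kinase Cdk1 at 81 and 46.4 CPM in the SLC+LPS libraries, 76.9 and 7.16 CPM in the LPS libraries and 3.16 and 8.15 CPM in the control libraries. The second LPS library was again nearest to the controls. Aurka, another mitotic kinase, was at 20.2 and 7.02 CPM in SLC+LPS libraries, against 0.316 and 0.843 CPM in control libraries.

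Inflammatory mediators were counted next. A gene is called prone to free RNA if at least 50% of the higher group's level was expected from it. Over all genes, 3882 of 11088 are prone to it for SLC+LPS against control. Of 35 chemokines, cytokines and adhesion molecules, 18 were higher and 1 lower without overlap, with 13 passing higher, and 11 of the list are prone to free RNA. Their summed level in alveolar fibroblasts was 9874 and 17726 CPM in SLC+LPS, 18811 and 14773 CPM in LPS and 4572 and 6126 CPM in control libraries, below that of the free RNA of the same libraries, at 26896 and 20159 CPM in SLC+LPS, 28130 and 21928 CPM in LPS and 8231 and 10538 CPM in control libraries. Cxcl5, a chemokine for neutrophils, was at 14.6 and 28.1 CPM in the SLC+LPS libraries, 12.2 and 11.2 CPM in the LPS libraries and 0.316 and 0.843 CPM in the control libraries. Ptges, which makes prostaglandin E2, was at 80.3 and 108 CPM in the SLC+LPS libraries, 93.5 and 105 CPM in the LPS libraries and 32.8 and 32.3 CPM in the control libraries, and Ptgs2, the inducible cyclo-oxygenase before it, at 285 and 391 CPM in the SLC+LPS libraries, 626 and 270.2 CPM in the LPS libraries and 82.4 and 89.1 CPM in the control libraries. In these 3 genes all 4 LPS-treated libraries lay above both controls. Lymphocytes held Ptgs2 at 908 CPM in the first SLC+LPS library, 965 and 287 CPM in LPS and 158 and 116 CPM in control libraries. Each of these values was above that of the alveolar fibroblasts of the same library, and the part of other cells in Ptgs2 was not tested. Il1b, at 888 and 767 CPM in SLC+LPS libraries, against 314 and 327 CPM in control libraries, was at a level expected from free RNA alone. Of 31 NF-kB response genes 16 were higher and 2 lower without overlap, with 6 passing higher, but 19 of the list are prone to free RNA. Tnfrsf1b, Il1rn and Cd14 had 78.6%, 85.4% and 95% of their SLC+LPS level expected from it, and Sphk1, sphingosine kinase 1, 4.42%, with 25.3 and 26.7 CPM in the SLC+LPS libraries, 18.3 and 13.9 CPM in the LPS libraries and 6 and 8.99 CPM in the control libraries.

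Of 43 interferon-stimulated genes, 28 were higher and 4 lower without overlap, with a median log2 fold change of 1.38; Ifit3, Irgm1, Irgm2, Iigp1, Ifi47, Ifi204 and Zbp1 passed higher in the 2 groups, and 10 of the list are prone to free RNA. Their summed level was 1854 and 4646 CPM in SLC+LPS, 4712 and 4820 CPM in LPS and 1088 and 1298 CPM in control libraries, against 2054 and 5384 CPM in SLC+LPS, 5281 and 6977 CPM in LPS and 1698 and 1738 CPM in control libraries in the free RNA. Of 19 genes of MHC class I and antigen processing, 11 were higher and 1 lower, and 3 passed higher. Their levels are given with the comparison of SLC+LPS and LPS mice.

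The remaining lists follow by function, beside 20.4% higher and 34.2% lower without overlap over all genes. Of 26 proteases and inhibitors, 11 were higher and 4 lower without overlap. Adam12, a metalloprotease of activated mesenchymal cells, was at 15.8 and 29.5 CPM in the SLC+LPS libraries, 9.61 and 4.92 CPM in the LPS libraries and 1.26 and 2.25 CPM in the control libraries. Timp3, the matrix-bound metalloproteinase inhibitor, was at 998 and 884 CPM in the SLC+LPS libraries, 975 and 2263 CPM in the LPS libraries and 2926 and 3265 CPM in the control libraries. Mmp9, at 14.6 and 14 CPM in SLC+LPS libraries, against 4.1 and 5.9 CPM in control libraries, had 64.7% expected from free RNA. Adam12 was higher, and Timp3 lower, in both SLC+LPS libraries than in both controls. Of 12 complement genes, 3 were higher and 3 lower. C7, of the terminal pathway, was at 98.7 and 61.8 CPM in the SLC+LPS libraries, 43.7 and 192 CPM in the LPS libraries and 225 and 230.4 CPM in the control libraries. It was lower in all LPS-treated libraries than in the controls. C1ra was at 376 and 549 CPM in SLC+LPS libraries, against 308 and 318 CPM in control libraries, and Cd55 at 17.7 and 16.9 CPM in SLC+LPS libraries, against 45.8 and 34.3 CPM in control libraries, of which free RNA was expected to give 59.7% of the control level.

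Adrenergic and cAMP genes bear on the sympathetic nerve named in the series title. Of 26 tested, 14 (53.8%) were lower without overlap and 1 (3.85%) higher, against 34.2% and 20.4% of all genes, and the median log2 fold change was -0.33. Only 1 of 27 passed lower in the 2 groups, and 10 of the 26 are prone to free RNA. Sik1, a kinase induced by cAMP, was at 107 and 92.7 CPM in the SLC+LPS libraries, 136 and 289.9 CPM in the LPS libraries and 161 and 139 CPM in the control libraries. Pde4b, which breaks down cAMP, was at 46.8 and 112 CPM in the SLC+LPS libraries, 139.8 and 271 CPM in the LPS libraries and 104 and 134 CPM in the control libraries, and free RNA was expected to give 76.3% of the level in LPS libraries.

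Of 22 glucocorticoid genes, 3 were higher and 12 lower without overlap, with a median log2 fold change of -0.61; 3 passed higher and 2 lower. Sgk1, a kinase induced by glucocorticoids, was at 110.1 and 111 CPM in the SLC+LPS libraries, 180.0 and 393 CPM in the LPS libraries and 196 and 212 CPM in the control libraries. The hypoxia and stress gene Ddit4, also a glucocorticoid target, was at 22.1 and 47.8 CPM in the SLC+LPS libraries, 24.5 and 12.1 CPM in the LPS libraries and 6.63 and 8.15 CPM in the control libraries. Errfi1, a feedback inhibitor of EGF receptors, was at 177 and 145 CPM in the SLC+LPS libraries, 213 and 1022 CPM in the LPS libraries and 176 and 299.8 CPM in the control libraries, and the transcription factor Cebpb at 894 and 471 CPM in the SLC+LPS libraries, 1019 and 837 CPM in the LPS libraries and 529 and 481 CPM in the control libraries. Sgk1 was lower and Ddit4 higher in both SLC+LPS libraries than in both controls, and Errfi1 and Cebpb overlapped with them.

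Immediate early and heat shock genes, which tissue digestion also raises, showed 1 of 28 higher, 4 lower and none passing. Fos was at 2355 and 1689 CPM in the SLC+LPS libraries, 3106 and 5491 CPM in the LPS libraries and 3429 and 3730.4 CPM in the control libraries, Myc at 45.5 and 75.9 CPM in the SLC+LPS libraries, 72.5 and 196 CPM in the LPS libraries and 62.2 and 73.3 CPM in the control libraries and Zfp36 at 2676 and 2269 CPM in the SLC+LPS libraries, 3426 and 5122 CPM in the LPS libraries and 2287 and 3480.3 CPM in the control libraries. The second LPS library was the highest in all 3. The heat shock protein gene Dnajb1 was at 399 and 531 CPM in SLC+LPS libraries, against 195 and 309.6 CPM in control libraries.

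Of 28 TGF-beta and BMP genes, 6 were higher and 12 lower without overlap, and 2 passed each way. Ltbp2, a microfibril protein, was at 144 and 157 CPM in the SLC+LPS libraries, 97 and 60.8 CPM in the LPS libraries and 87.5 and 73.1 CPM in the control libraries. Tgfbr3, the co-receptor betaglycan, was at 152 and 95.5 CPM in the SLC+LPS libraries, 135 and 414 CPM in the LPS libraries and 411 and 384 CPM in the control libraries. Both SLC+LPS libraries were above the controls in Ltbp2 and below them in Tgfbr3. Of 26 hypoxia and glycolysis genes, 12 were higher and 4 lower, and 7 passed higher. Pgk1, a glycolytic enzyme, was at 300.5 and 327 CPM in the SLC+LPS libraries, 237 and 151 CPM in the LPS libraries and 147 and 151 CPM in the control libraries, and Eno1, another, at 27.2 and 21.1 CPM in SLC+LPS libraries, against 9.47 and 8.99 CPM in control libraries. Of 24 vasoactive and detoxification genes, 17 (70.8%) were lower and 2 higher, with 6 passing lower and 1 higher. Cyp2e1, a cytochrome P450, was at 4.43 and 1.4 CPM in the SLC+LPS libraries, 12.2 and 10.3 CPM in the LPS libraries and 17.7 and 24.2 CPM in the control libraries. Aox3, an aldehyde oxidase, was at 6.96 and 7.02 CPM in SLC+LPS libraries, against 16.4 and 30.1 CPM in control libraries, and free RNA was expected to give 53.4% of the control level. Ednrb, an endothelin receptor, was at 17.1 and 4.21 CPM in SLC+LPS libraries, against 16.7 and 22.5 CPM in control libraries, a level that free RNA alone could give in the controls.

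**Figure D4:**
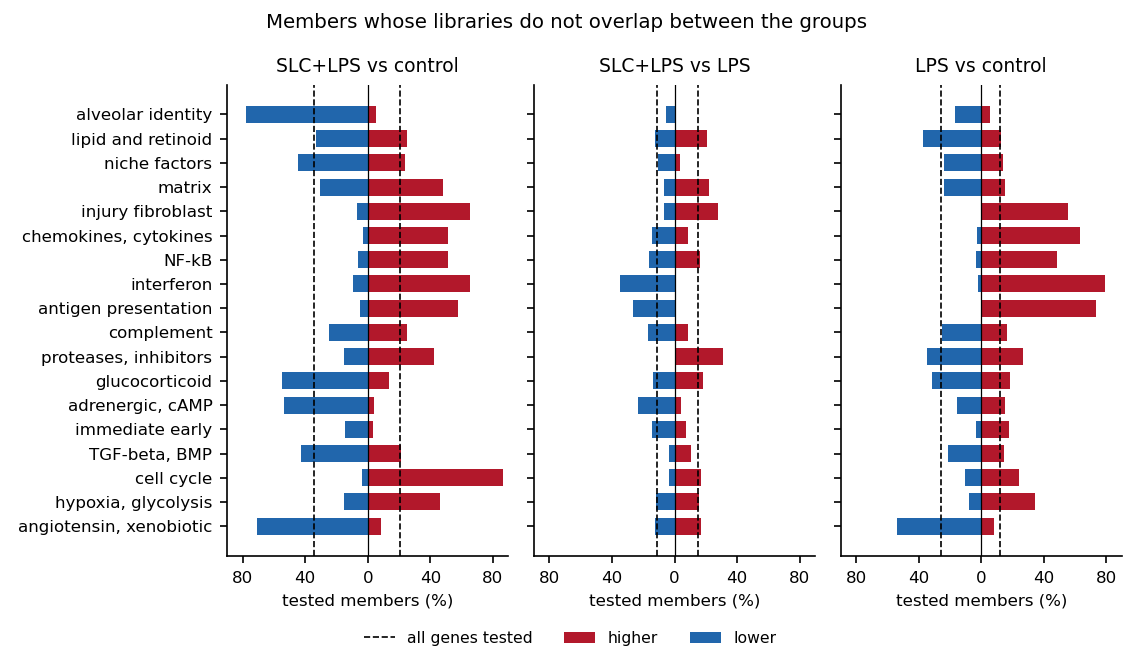
Percentage of tested members of each gene list whose libraries lay all above (right of 0) or all below (left of 0) those of the other group, in 3 comparisons, with the percentage of all genes tested in dashed lines. The list of vasoactive and detoxification genes is written angiotensin, xenobiotic. For SLC+LPS against control, cell cycle genes reach 86.2% higher and alveolar fibroblast genes 77.8% lower, against 20.4% and 34.2% of all genes.

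LPS alone was set against control in the same fit. Mmp8 and Tnc rose again, and Cyp2f2 and Cbr2, enzymes of airway secretory cells, fell. These are 0.018% of genes higher and 0.018% lower. Lymphocytes held more Mmp8 than the alveolar fibroblasts in both LPS libraries, as given above. Tnc had a log2 fold change of 2.98 (SE 0.31) and adjusted p = 0.0418 (1.61e-12 to 0.545 over the alternatives, 0.00145 without the second LPS library). Mmp8, of whose LPS level free RNA was expected to give 34.3% and whose share of cells in the first LPS library was at that of lymphocytes, had 3.58 (SE 0.32) and adjusted p = 0.0418 (8.2e-16 to 0.335 over the alternatives, 0.00101 without the second LPS library). Each was under 0.05 in 9 of 18 alternatives, and over it without either control or either SLC+LPS library, without Ptprc, Epcam or Pecam1 cells (0.131 for Mmp8 and 0.121 for Tnc) and in 4 other settings.

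Cyp2f2 and Cbr2 lie outside the naming rule and were chosen after their values were seen. Cyp2f2 was at 4.43 and 8.43 CPM in the SLC+LPS libraries, 3.49 and 4.47 CPM in the LPS libraries and 93.1 and 136 CPM in the control libraries (log2 fold change -4.66, SE 0.45, adjusted p = 0.0418). Cbr2 was at 24 and 11.2 CPM in the SLC+LPS libraries, 11.4 and 10.3 CPM in the LPS libraries and 129 and 149 CPM in the control libraries (log2 fold change -3.55, SE 0.38, adjusted p = 0.0418). Free RNA was expected to give 100% of the control level of Cyp2f2 and 83.6% of that of Cbr2, and the airway marker sum was higher in the controls. The count of 4 calls became 427 without the second LPS library and 261 without the first, and 0 with the SLC+LPS libraries left out.

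Libraries without overlap made up 11.9% of genes higher and 25.8% lower in LPS mice, with a median log2 fold change of 0.028 over all genes. Of all 11088 genes, 3775 are prone to free RNA in this comparison. Interferon-stimulated genes stood at 34 of 43 (79.1%) higher and 1 lower, with a median log2 fold change of 1.82; 9 passed higher without the second LPS library, a fit in which 2.6% of 11231 genes passed higher and 1.2% lower, and 12 are prone to free RNA. Genes of MHC class I and antigen processing stood at 14 of 19 higher and none lower, with a median of 1.74. The chemokine list had 22 of 35 higher and 1 lower, and the list of inflammatory and fibrotic fibroblasts 16 of 29 higher and none lower. None of these members besides Tnc was called in all 6 libraries.

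Several lists depended on which LPS library was read. Over all genes, 11.9% were higher and 25.8% lower without overlap. Alveolar fibroblast genes stood at 1 of 18 higher and 3 lower, with a median log2 fold change of 0.04, but 8 of 18 passed lower without the second LPS library, against 1.2% of all genes in that fit. Cell division genes stood at 7 of 29 higher and 3 lower, and 16 of 29 passed higher without that library, against 2.6% of all genes. Lipid and retinoid genes stood at 3 higher and 9 lower of 24, niche factors at 4 and 7 of 29, and matrix genes at 7 and 11 of 46. Vasoactive and detoxification genes stood at 2 higher and 13 lower of 24. For the other lists, the numbers higher and lower were 15 and 1 for NF-kB genes, 9 and 2 for hypoxia, 7 and 9 for proteases, 2 and 3 for complement, 4 and 7 for glucocorticoid, 4 and 4 for adrenergic, 5 and 1 for immediate early and 4 and 6 for TGF-beta genes.

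SLC+LPS and LPS mice did not differ in any called gene (0.0% higher and 0.0% lower). At an unadjusted p under 0.05 there were 402 of 11088 genes, and DESeq2 called 1. Libraries without overlap made up 14.8% of genes higher and 11.3% lower, and the median log2 fold change was -0.013. The 6 genes of smallest p at 50 CPM or more are therefore given as values, all at adjusted p = 0.915.

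H2-T23 encodes Qa-1, a non-classical MHC class I molecule that is read by NK and T cells. It was at 19.6 and 25.3 CPM in the SLC+LPS libraries, 84.7 and 148 CPM in the LPS libraries and 34.4 and 23 CPM in the control libraries. Both LPS libraries lay above all others, and SLC+LPS and control libraries overlapped. The log2 fold change of SLC+LPS against LPS was -2.42 (SE 0.39), with unadjusted p = 0.000284 and adjusted p from 8.38e-06 to 1 over 18 alternatives, under 0.05 in 3. Against control, LPS mice had 2.17 (SE 0.36), with adjusted p = 0.0924.

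Col15a1, a basement-membrane-associated collagen chain, was at 149 and 375 CPM in the SLC+LPS libraries, 69.9 and 48.3 CPM in the LPS libraries and 130.4 and 92.4 CPM in the control libraries. Fbln2, a matrix protein of elastic fibres and basement membranes, was at 239.8 and 199 CPM in the SLC+LPS libraries, 100.5 and 56.8 CPM in the LPS libraries and 108 and 108 CPM in the control libraries. Both were higher in the SLC+LPS libraries than in all others, with log2 fold changes against LPS of 2.15 (SE 0.50) (unadjusted p = 0.00275) and 1.46 (SE 0.34) (0.00287). Spp1 was also higher in SLC+LPS mice, with 2.22 (SE 0.52) (0.00292). Tnfsf9, the ligand of the T cell receptor 4-1BB, was at 18.3 and 14 CPM in the SLC+LPS libraries, 33.2 and 74.3 CPM in the LPS libraries and 38.2 and 43 CPM in the control libraries. Ccn2 was at 255 and 267 CPM in the SLC+LPS libraries, 600.2 and 802 CPM in the LPS libraries and 1091 and 593 CPM in the control libraries. These were lower in SLC+LPS mice, with -1.74 (SE 0.43) (0.00392) and -1.44 (SE 0.36) (0.00443).

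Interferon-type and MHC genes stood on the lower side of SLC+LPS against LPS. Of 43 interferon-stimulated genes 15 (34.9%) were lower without overlap and 0 higher, against 11.3% and 14.8% of all genes, with a median log2 fold change of -0.62. Of 19 MHC class I and antigen processing genes 5 (26.3%) were lower and 0 higher, with a median of -0.23. None was called. Irgm1, an interferon-induced GTPase, was at 39.2 and 64.6 CPM in the SLC+LPS libraries, 105 and 187 CPM in the LPS libraries and 18.3 and 12.9 CPM in the control libraries. Its log2 fold change was -1.52 (SE 0.40) against LPS (unadjusted p = 0.00526, adjusted 0.915) and 1.84 (SE 0.42) against control (adjusted p = 0.197, 0.0248 in the 2 groups).

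The libraries of 1 group differed widely in other members. Iigp1, a GTPase of the same family, was at 295 and 899 CPM in the SLC+LPS libraries, 903 and 1071 CPM in the LPS libraries and 57.8 and 73.9 CPM in the control libraries. Ifi47 was at 54.4 and 187 CPM in the SLC+LPS libraries, 142 and 155 CPM in the LPS libraries and 11.1 and 8.43 CPM in the control libraries, and the guanylate-binding protein Gbp6 at 32.3 and 146 CPM in the SLC+LPS libraries, 103 and 131 CPM in the LPS libraries and 2.53 and 6.18 CPM in the control libraries. In each the first SLC+LPS library was the lowest of the 4 LPS-treated libraries, and in Ifi47 and Gbp6 the second was above both LPS libraries. H2-T22, another MHC class I gene, was at 45.5 and 77.3 CPM in the SLC+LPS libraries, 127 and 103 CPM in the LPS libraries and 31.3 and 32.9 CPM in the control libraries, and the immunoproteasome subunit Psmb9 at 3.16 and 14 CPM in the SLC+LPS libraries, 18.3 and 17.4 CPM in the LPS libraries and 1.26 and 1.69 CPM in the control libraries. Cd274, which encodes PD-L1, was at 66.4 and 112 CPM in SLC+LPS libraries, against 156 and 115 CPM in LPS libraries, levels that free RNA alone could give (100% of the LPS level).

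The start-site windows of these genes are shown because many interferon-type and inflammatory genes stood on the same side of the comparisons above. Windows run from 250 bases before to 50 bases after the start (RefSeq, build GRCm38.p6, which is not the GRCm39 build of the submitters' processing notes). Capitals mark matches, on either strand, to GAAANNGAAA (interferon-response type), GGGANNTTCC (NF-kB type) or TATATAA (the type of the TATA box). For Tnc, which has 2 windows in the table, 1 is shown.
Irgm1: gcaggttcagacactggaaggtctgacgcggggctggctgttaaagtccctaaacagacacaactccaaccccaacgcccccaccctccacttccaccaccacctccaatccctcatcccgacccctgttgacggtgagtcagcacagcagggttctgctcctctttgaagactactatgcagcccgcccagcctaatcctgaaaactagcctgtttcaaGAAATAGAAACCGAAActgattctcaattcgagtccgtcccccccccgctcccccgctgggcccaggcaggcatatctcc
H2-T23: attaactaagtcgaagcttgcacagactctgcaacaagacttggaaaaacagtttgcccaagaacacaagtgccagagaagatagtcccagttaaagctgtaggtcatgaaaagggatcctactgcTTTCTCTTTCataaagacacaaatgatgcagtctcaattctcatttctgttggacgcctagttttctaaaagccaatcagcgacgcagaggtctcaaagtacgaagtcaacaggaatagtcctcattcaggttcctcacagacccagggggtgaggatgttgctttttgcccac
Cxcl10: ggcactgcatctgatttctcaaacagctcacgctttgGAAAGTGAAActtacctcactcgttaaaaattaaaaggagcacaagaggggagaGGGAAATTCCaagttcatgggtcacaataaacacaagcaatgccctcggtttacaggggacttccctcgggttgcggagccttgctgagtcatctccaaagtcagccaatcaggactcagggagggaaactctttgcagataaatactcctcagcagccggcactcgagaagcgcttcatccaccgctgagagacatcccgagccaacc
Tnc: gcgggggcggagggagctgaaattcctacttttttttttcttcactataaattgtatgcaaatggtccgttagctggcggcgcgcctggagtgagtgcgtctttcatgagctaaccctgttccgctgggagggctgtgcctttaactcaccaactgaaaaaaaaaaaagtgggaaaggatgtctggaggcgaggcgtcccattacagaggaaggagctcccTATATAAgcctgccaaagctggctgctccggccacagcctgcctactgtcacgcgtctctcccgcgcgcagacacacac

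The Irgm1 window (chr11:48871371-48871670, minus strand) holds 2 overlapping interferon-type matches, at 30 to 21 and 24 to 15 bases before the start. The H2-T23 window (chr17:36032652-36032951, minus strand) holds 1 on the opposite strand, 124 to 115 bases before the start. The Cxcl10 window (chr5:92348840-92349139, minus strand) holds an interferon-type match at 213 to 204 bases and an NF-kB type match at 159 to 150 bases before the start. Cxcl10 encodes a chemokine for T cells. The Tnc window (chr4:64046887-64047186, minus strand) holds a TATA-type match at 29 to 23 bases before the start. Of all 27025 genes with a window, 3.99% hold the interferon type in a window, 1.63% the NF-kB type and 3.84% the TATA type. Of the interferon-stimulated list, 33 genes had a window and 21 of these (63.6%) held the interferon type, as did 3 of 15 MHC genes (20%). The NF-kB type stood in 6 of 29 chemokine list genes (20.7%). These are matches of letters, not sites of binding.

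For the other lists no difference between SLC+LPS and LPS was called. Over all genes, 14.8% were higher and 11.3% lower without overlap, and the counts below stand beside those shares. Genes of inflammatory and fibrotic fibroblasts stood at 8 of 29 higher and 2 lower, matrix genes at 10 of 46 higher and 3 lower, and proteases and inhibitors at 8 of 26 higher and none lower. Adrenergic and cAMP genes stood at 1 of 26 higher and 6 lower. Alveolar fibroblast genes stood at 0 of 18 higher and 1 lower, with a median log2 fold change of -0.74, chemokines at 3 of 35 and 5, and cell division genes at 5 of 29 and 1. Leaving out the first LPS library gave 912 called genes, and leaving out the second gave 0.

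Whether alveolar fibroblasts differed in response from adventitial fibroblasts of the same mice was tested directly, as an interaction in edgeR with the library as a block, over 10827 genes. The test compares the change in alveolar with the change in adventitial cells; a positive value means a more positive change in alveolar cells. For LPS against control 4 genes were called (0.0369%), of which Npnt is a rule gene and is not read. For SLC+LPS against control 12 were called (0.111%).

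Fst responded more in alveolar fibroblasts under both treatments. In adventitial fibroblasts it was at 37 and 41.7 CPM in SLC+LPS, 130.1 and 69.2 CPM in LPS and 41.3 and 31.6 CPM in control libraries. In these cells the SLC+LPS libraries overlapped with the controls and both LPS libraries lay above them. The interaction was 4.15 (SE 0.39, adjusted p = 8.68e-05, 4.79e-34 to 0.0468 over the alternatives) for SLC+LPS and 2.77 (SE 0.35, adjusted p = 0.00551, 2.06e-19 to 0.341 over the alternatives) for LPS. Fn1 was at 876 and 1067 CPM in SLC+LPS, 966 and 914 CPM in LPS and 844 and 1141 CPM in control libraries in adventitial fibroblasts, with overlapping groups, whereas in alveolar cells all 4 LPS-treated libraries exceeded the controls. Its interaction was 1.35 (SE 0.21, adjusted p = 0.00813, 1.3e-09 to 0.825 over the alternatives) for SLC+LPS.

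Nrep, a neuronal regeneration-related protein known from TGF-beta signalling, was at 562 and 443 CPM in SLC+LPS, 393 and 375 CPM in LPS and 139.6 and 112 CPM in control libraries in alveolar cells and at 38.4 and 56.4 CPM in SLC+LPS, 42.5 and 56.2 CPM in LPS and 78.7 and 36.1 CPM in control libraries in adventitial cells. In alveolar cells all 4 LPS-treated libraries were above the controls, and in adventitial cells the groups overlapped. The interaction was 2.29 (SE 0.33, adjusted p = 0.00813, 5.21e-19 to 0.426 over the alternatives) for SLC+LPS. Lpl, lipoprotein lipase, was at 353 and 596 CPM in SLC+LPS, 447 and 80.1 CPM in LPS and 172 and 179 CPM in control libraries in alveolar and 186 and 226 CPM in SLC+LPS, 309 and 89.4 CPM in LPS and 257 and 255 CPM in control libraries in adventitial cells, with an interaction of 1.71 (SE 0.26, adjusted p = 0.00813, 4.87e-19 to 0.426 over the alternatives). The second LPS library was the lowest of its kind in both.

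Other genes had the more negative change in alveolar cells. For Slit2, Ptgs1 and Sfrp2 the adventitial level was higher in both SLC+LPS libraries than in both controls, as was the mesothelial marker sum of the adventitial cells (132 and 309 CPM in SLC+LPS, 2.34 and 5.82 CPM in control libraries), whose part in these differences was not tested. Slit2, a guidance ligand, was at 138 and 119 CPM in SLC+LPS, 115 and 242 CPM in LPS and 234 and 219 CPM in control libraries in alveolar and 142 and 93.2 CPM in SLC+LPS, 74.7 and 83.6 CPM in LPS and 50.6 and 49 CPM in control libraries in adventitial cells, with an interaction of -2.07 (SE 0.28, adjusted p = 0.00794, 5.22e-18 to 0.426 over the alternatives) for SLC+LPS. Ptgs1, the constitutive cyclo-oxygenase, was at 66.4 and 67.4 CPM in SLC+LPS, 40.2 and 52.3 CPM in LPS and 80.5 and 108 CPM in control libraries in alveolar and 62.6 and 73.6 CPM in SLC+LPS, 20.6 and 23.1 CPM in LPS and 12.5 and 31.6 CPM in control libraries in adventitial cells, with -2.14 (SE 0.32, adjusted p = 0.00813, 3.73e-10 to 0.426 over the alternatives). Sfrp2, a secreted modulator of Wnt signalling, was at 3.8 and 1.4 CPM in SLC+LPS, 9.61 and 2.68 CPM in LPS and 9.16 and 7.02 CPM in control libraries in alveolar and 14.2 and 61.3 CPM in SLC+LPS, 29.6 and 27.4 CPM in LPS and 3.89 and 1.66 CPM in control libraries in adventitial cells, with -4.72 (SE 0.85, adjusted p = 0.0415, 5.59e-08 to 0.691 over the alternatives). These low levels were higher in the adventitial cells of all LPS-treated libraries than in those of the controls. Tnfsf13b, outside the naming rule and chosen after its values were seen, is the B cell survival factor BAFF. It was at 259 and 271 CPM in SLC+LPS, 256 and 261 CPM in LPS and 261 and 267 CPM in control libraries in alveolar and 302 and 375 CPM in SLC+LPS, 299 and 147 CPM in LPS and 115 and 102 CPM in control libraries in adventitial cells, with -1.60 (SE 0.28, adjusted p = 0.0474, 4.03e-15 to 0.778 over the alternatives). It was near constant in alveolar cells and higher in adventitial cells of LPS-treated mice.

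Cxcl10 was the further called gene for LPS with low free RNA. It was at 287 and 1507 CPM in SLC+LPS, 1023 and 2207 CPM in LPS and 90.6 and 199.8 CPM in control libraries in alveolar and 155 and 1440.3 CPM in SLC+LPS, 513 and 711 CPM in LPS and 121 and 236 CPM in control libraries in adventitial cells, with an interaction of 1.69 (SE 0.26, adjusted p = 0.0263, 9.36e-15 to 0.532 over the alternatives) for LPS. The SLC+LPS libraries lay far apart from each other in both cell types. Among the genes called, Fst was called for both treatments, in tests that share the control libraries.

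**Figure D5:**
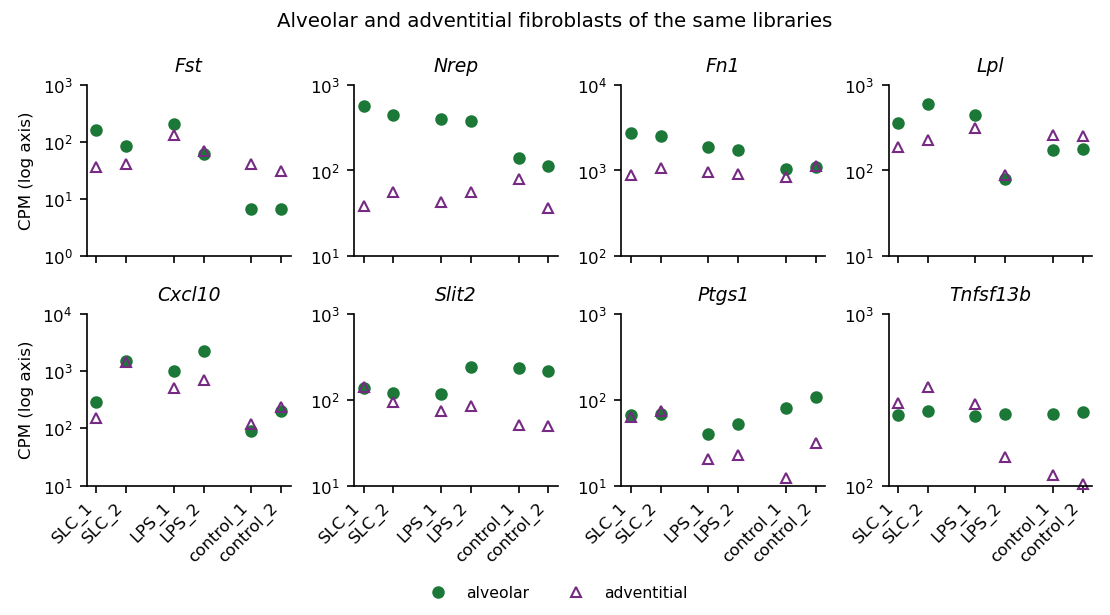
Levels of genes called in the comparison of responses, in alveolar and adventitial fibroblasts summed per library (CPM, log axis; each point is 1 library and cell type, written SLC for the SLC+LPS libraries, LPS and control). Fst in alveolar cells lies at 60.4 to 204 CPM in the 4 LPS-treated libraries against 6.63 and 6.74 CPM in control libraries.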

How the data were processed

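UMI counts per gene and barcode were deposited as 1 matrix per library by the authors; per the labels' protocols, libraries were made with BD Rhapsody whole transcriptome analysis and sequenced on DNBSEQ-T7. The submitters' processing notes name GRCm39 and mm39; the aligner and counter are not given in the sources used here. Cells were chosen as stated at the opening, from 29492 genes in Python 3.11.15 (scanpy 1.11.5, scipy 1.17.1), and their counts summed per library. Sums held 711816 to 3559159 UMIs. The members and the 18 lists (504 genes, 1 not in the files) were chosen with earlier results of these data known.

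Summed counts were tested with edgeR 4.0.16 in R 4.3.3 (TMM factors, filterByExpr, robust quasi-likelihood fit on all 6 libraries, group as the term, Benjamini-Hochberg adjustment). The response of alveolar against adventitial fibroblasts was an interaction with the library as a block. Alternatives were a fit of the 2 groups compared, DESeq2 1.42.0, RLE factors, no low-count filter, other cell filters, free RNA subtracted, and each library left out. Library totals without factors, and naming from the fit of SLC+LPS and control libraries alone, were added after the data were seen. Scripts were tested on simulated data.

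Named were, per comparison, the 10 largest differences each way among called genes at 50 CPM or more, without overlap, with under 50% expected from free RNA and outside the rule; with no call, the 6 smallest p; of each list the 4 smallest p; and for the interaction the 4 smallest p each way. Other names (passing members of the matrix and interferon lists, Cyp2f2, Cbr2 and Tnfsf13b) were chosen after their values were seen. Scrublet was run for doublets; it marked 0% and 0.0155% of barcodes in the SLC+LPS libraries and so did not work there, and calls were kept. Numbers in the labels did not pair samples: deviations of same-numbered libraries correlated at 0.0237 (LPS and control), 0.0920 (SLC+LPS and control) and -0.156 (SLC+LPS and LPS). Free RNA was scaled on 12 marker genes of other cells, so a share for 1 gene is an estimate. Some list members are not reported here by name.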

Additional observations from a re-analysis of the deposited data

Results flagged for a closer look

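These genes differed in response between alveolar and adventitial fibroblasts by edgeR's interaction test. Values are log2 differences of the change, alveolar minus adventitial. For LPS against control they were 2.77 for Fst, 1.69 for Cxcl10 and -2.44 for Serpinb1a, a protease inhibitor of which free RNA was expected to give 66.8% of the alveolar level. For SLC+LPS against control they were 4.15 for Fst, 2.29 for Nrep, 1.71 for Lpl, 1.35 for Fn1, -2.07 for Slit2, -2.14 for Ptgs1, -4.72 for Sfrp2 and -1.60 for Tnfsf13b. Tubb3, a neuronal tubulin, had 3.79. Ptger1, a prostaglandin E receptor, had -3.27. The pseudogene Ccl19-ps2 had -2.31 and the predicted gene Gm20186 -1.33. Slit2, Lpl and Gm20186 had 38.6%, 32.7% and 48.3% of the higher alveolar level expected from free RNA. Serpinb1a, Tubb3, Ptger1, Ccl19-ps2 and Gm20186 are named here because they were called.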

How the results depend on the processing

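With 2 mice a group, 1 library decided most counts. Of 88 results for 84 named genes, 1568 alternative values kept their side of the threshold and direction in 1239, gained a call in 300, lost it in 28 and reversed in 1: Cd36, SLC+LPS against control, at a log2 fold change of 5.25 after free RNA was subtracted.

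For LPS against control, 4 genes were called; the count was 169 with DESeq2, 239 with free RNA subtracted, 397 with no low-count filter, 2 with at least 4 alveolar genes, 2 without genes prone to free RNA, and 0 each with the replicate block, the stricter cell filter, the 2 groups compared only, Scrublet calls removed or Ptprc, Epcam and Pecam1 cells removed. Leaving out each library gave 0 to 427 (261 without the first and 427 without the second LPS library). For SLC+LPS against control, 2 were called; the count was 190 with DESeq2, 201 with free RNA subtracted, 516 with no low-count filter, 5 with the replicate block, 688 in the 2 groups only, 4 with library totals, 1 without Scrublet calls and 1 without Ptprc, Epcam and Pecam1 cells. Leaving out each library gave 0 to 684 (652 without the first and 684 without the second LPS library). For SLC+LPS against LPS, 0 were called; DESeq2 called 1, no low-count filter 39, and leaving out each library gave 0 to 912, the highest without the first LPS library.

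The comparison with adventitial fibroblasts called 4 genes for LPS and 27 with free RNA subtracted, 66 with no low-count filter and 1 with the stricter cell filter; leaving out each library gave 0 to 270. For SLC+LPS it called 12, and 25, 100 and 5 under those settings, with 1 to 204 on leaving out each library. The alveolar share of both fibroblast kinds, LPS minus control, ran from -2.21 percentage points (without the second LPS library) to 17.3 (without the first), and the alveolar share of barcodes, SLC+LPS minus LPS, from -3.13 (without the first) to 0.305 (without the second). The causes were not tested, except that no low-count filter tests 21268 genes in place of 11088. Where a library was left out, the lone library of its group is assumed to vary like the other groups. Library totals moved the median log2 fold change of all genes to -0.116 (LPS) and -0.123 (SLC+LPS) against control. The sums of 711816 and 1144645 UMIs, from 145 and 182 cells, limit what the second SLC+LPS and the first LPS library can show. The adventitial sums in the comparison of responses were smaller in every library. They came from 115 and 74 cells in SLC+LPS, 113 and 128 in LPS and 604 and 698 in control libraries. The smallest, in the second SLC+LPS library, held 407556 UMIs.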
